A study of Mus musculus with 12 samples.

Results

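The comparison described here asks how far the response of liver cells to PA depends on the stress granule protein G3BP1. It uses all 12 of the 12 RNA-seq libraries of the series, in 4 groups of 3, all from 6-week-old mice. Flox_BSA and Flox_PA are primary hepatocytes from G3bp1-Flox mice, given BSA or PA. HKO_BSA and HKO_PA are primary hepatocytes from mice with a hepatocyte-specific G3bp1 knockout, given BSA or PA. The labels spell out neither BSA nor PA. Cre driver, sex, dose and hours of exposure are likewise not stated in them, nor whether the 3 libraries of a group came from different mice, so the p-values measure the spread between these libraries, which may be technical. The quantity examined is the interaction, (HKO_PA - HKO_BSA) - (Flox_PA - Flox_BSA), computed for each gene on log2(FPKM + 1), where FPKM is the deposited level per length and per library size. A positive interaction means that the step from BSA to PA is higher in HKO than in Flox, and a negative one that it is lower. Of the 54532 genes in the table, the test took the 9743 whose mean over all 12 libraries reached 1 FPKM.

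G3BP1 binds RNA and nucleates stress granules, the assemblies of stalled messenger RNA and protein that form when translation initiation is blocked. In hepatocytes a fatty acid load is stored in lipid droplets, burned in mitochondria and peroxisomes, and can strain the endoplasmic reticulum, the antioxidant system and inflammatory signalling. Each of these branches has a transcriptional arm that can be read from RNA: PPARA for fat oxidation and droplet coats, ATF4 and ATF6 for the endoplasmic reticulum, NRF2 for glutathione, HSF1 for heat shock proteins and NF-kB for chemokines.

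Each library held 15.02 to 18.42 M reads in genes, where M is a factor of 10 to the power of 6. The HKO libraries scattered more than the Flox libraries, with a median log2 SD per gene of 0.21 in HKO_BSA and 0.223 in HKO_PA against 0.104 and 0.114 in Flox. On the second principal component, which held 11.7% of the variance, HKO_BSA 1 at 26.7 and HKO_PA 1 at -34.3 stood apart, so counts are also given without both. All 20 hepatocyte markers looked up were above 0 in each group. They summed to between 7863.4 and 9079.5 FPKM in the Flox libraries. In HKO_BSA the sums ran from 11080 to 20837 (median 20356), and in HKO_PA from 11988 to 21366 (median 12992). The 16 macrophage markers summed to between 1873.6 and 2333.6 FPKM in the Flox libraries and to between 93 and 179 in the HKO libraries, and none was at 0 in any group. In bulk RNA, fewer cells of a type and less RNA per cell cannot be told apart. G3bp1 itself averaged 41.2 FPKM with BSA and 39.9 with PA in Flox, and 8.25 and 7.5 in HKO, with an interaction of -0.08 (SE 0.17, adjusted p = 0.8).

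The PA response differed between the genotypes for 26 genes (limma, Benjamini-Hochberg adjusted p under 0.05), which is 0.267% of the genes tested. Of these, 16 had a higher step in HKO (0.164%) and 10 a lower one (0.103%). At an unadjusted p under 0.05 there were 1699 of the 9743 genes tested, a count not corrected for the number of tests. The differences ran from 0.779 to 1.91 in size on the log2 scale, and 20 of the 26 were at least 1. The median standard error was 0.189 among these 26 and 0.225 over all genes tested. Within each genotype, PA raised 126 genes in Flox (1.29%) and 164 in HKO (1.68%), and lowered 89 in Flox (0.913%) and 122 in HKO (1.25%). The fit gave each gene the same standard error in both genotypes, although the HKO libraries scattered more. For the median gene this is strict for Flox and lenient for HKO, so calls in the genotypes, here and below, are not strictly comparable. Of the genes past the test in both genotypes, 54 moved the same way and 4 the opposite way.

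The count of 26 rested on few libraries. Without Flox_PA 2 the fit called 0 genes (limma), although 1193 of the 9743 genes had an unadjusted p under 0.05. All 26 stayed at or under an unadjusted p of 0.000611. Without HKO_PA 3 it called 265, and without both HKO libraries numbered 1 it called 88, which held 25 of the 26. A paired fit, with a block for each genotype and number, called 3, of which G0s2 and Adam8 were among the 26. The direction of each of the 26 was the same in every alternative fit that was run. Near the threshold, Tcim, Prdx6 and Hspa1a lay just inside (adjusted p = 0.0454), and Mmp12 (0.0518), Mfsd2a (0.0541) and Ccl2 (0.0541) lay just outside.

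Sorted by the estimated PA effect in each genotype, with 0.25 on the log2 scale as the least size that counted as a response, 14 of the 26 were reversed, 6 were lost in HKO, 1 was weakened, 3 were gained in HKO and 2 were amplified. These names describe where the estimates lie. Of the 26, 10 had a group mean under 1 FPKM, against 933 of the 9743 genes tested. Among the 6 lost genes, 4 (Lpl, Ms4a4c, Slfn1 and Adgre4) were under 1 FPKM in both HKO groups. The scale leaves little room for a response there, so their class describes the fall in Flox. Of the 14 reversed genes, G0s2, Gclc, Lce1g and Esm1 passed the test of the PA effect in both genotypes. Another 8 passed in HKO alone and 2 in Flox alone. Clec7a, which passed in Flox alone, was also under 1 FPKM in both HKO groups. With 0.5 as the least size, 6 genes were reversed, 9 lost, 0 weakened, 9 gained and 2 amplified, so the border between reversed and gained or lost moved with that limit. Both BSA groups enter both the interaction and the difference between genotypes under BSA, so the signs of these are not independent. Of the 16 genes with a higher step in HKO, 13 had a lower estimate in HKO than in Flox under BSA. The limma test of that difference (adjusted p under 0.05) was passed by 12 of them. All 10 with a lower step had a higher estimate in HKO under BSA, and 8 passed. Prdx6 (0.10) and Adam8 (0.13) did not. The matching counts over all genes tested were not made.

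**Figure D1:**
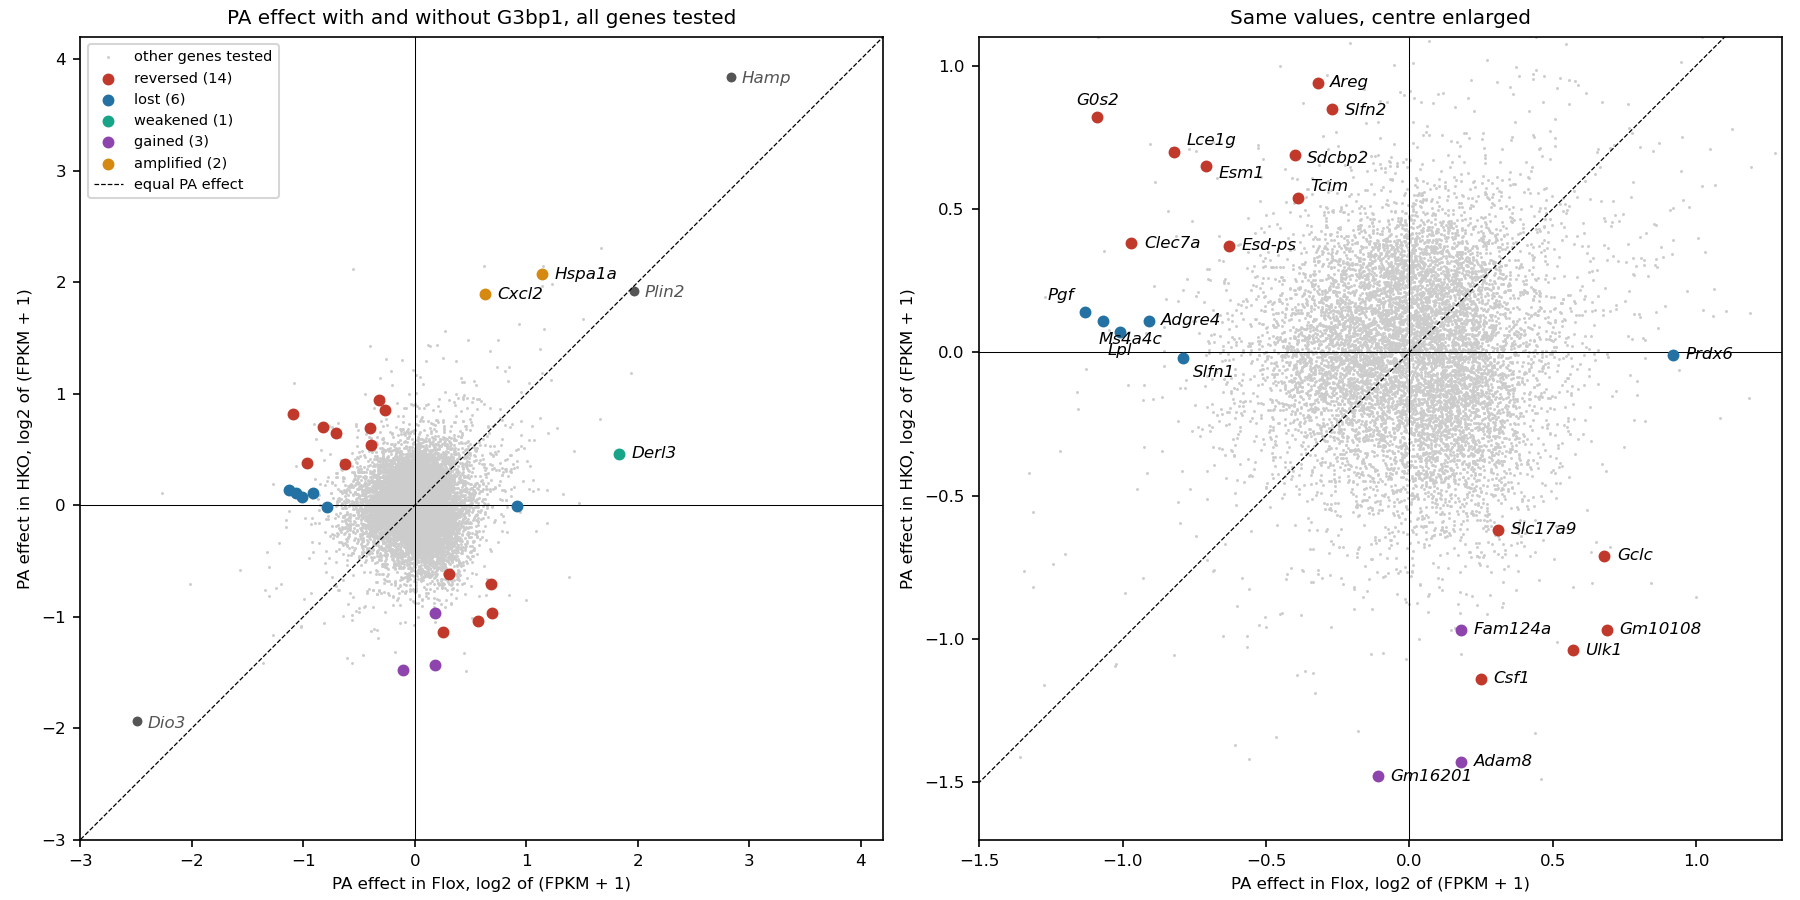
PA effect in Flox (horizontal) against PA effect in HKO (vertical), both on log2 of (FPKM + 1), for the 9743 genes tested, with the centre enlarged at right; coloured points are the 26 genes past the interaction test, by class, and the dashed line marks equal effects. Reversed genes lie in the upper left and lower right of the plot, while Plin2 lies close to the line, and Dio3 and Hamp, which did not pass, lie 0.55 and 1 above it.

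Among genes of lipid storage and breakdown, G0s2 had the highest interaction of the genes past the test. G0S2 is a small protein that inhibits ATGL, the first lipase of triglyceride breakdown on lipid droplets; its gene lies at chr1:193272161-193273217 on the minus strand (GRCm38). Its level was 66.2, 75.1 and 61.5 FPKM in Flox with BSA, then 34.6, 31 and 28 with PA, and in HKO 29.9, 16.7 and 22.1 with BSA and 47.9, 35.4 and 37.8 with PA. The PA and BSA libraries did not overlap in either genotype: PA lowered G0s2 in Flox (-1.09, adjusted p = 0.00788) and raised it in HKO (0.82, adjusted p = 0.0346). The interaction was 1.91 (SE 0.27, 95% interval 1.33 to 2.48, limma adjusted p = 0.0129), and G0s2 passed in 11 of the 12 fits that leave out 1 library. Ulk1, the kinase that starts autophagy, went the other way. It read 3.98, 4.28 and 3.86 FPKM with BSA and 5.24, 7.38 and 6.94 with PA in Flox, and 15, 10.3 and 10.1 with BSA and 3.71, 5.8 and 6.15 with PA in HKO. All 3 HKO_PA libraries lay below the HKO_BSA libraries (-1.04, adjusted p = 0.0101), whereas the higher values in Flox_PA missed the threshold (0.57, adjusted p = 0.167), and the interaction was -1.61 (SE 0.27, adjusted p = 0.0234). Lpl, lipoprotein lipase, which releases fatty acids from circulating lipoproteins, fell with PA in Flox from 17.5 ± 2.6 to 8.15 ± 1.35 FPKM (SD, n = 3) and stood at 0.442 ± 0.0151 and 0.521 ± 0.115 in HKO. Its interaction of 1.09 (adjusted p = 0.0409) thus compares a fall with a level under 1 FPKM, and with a pseudocount of 0.1 the adjusted p was 0.0659.

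In the glutathione system, Gclc and Prdx6 had lower steps in HKO. GCLC is the catalytic subunit of glutamate-cysteine ligase, the rate-limiting enzyme of glutathione synthesis (chr9:77754535-77794485, plus strand). Gclc measured 86.1, 92.2 and 83.4 FPKM in Flox with BSA, then 147, 132 and 141 with PA, and in HKO 119, 169 and 144 with BSA and 77.5, 90.7 and 93.2 with PA. HKO_BSA thus lay near Flox_PA, and HKO_PA near Flox_BSA. PA raised Gclc in Flox (0.68, adjusted p = 0.0245) and lowered it in HKO (-0.71, adjusted p = 0.0181), an interaction of -1.39 (SE 0.20, 95% interval -1.82 to -0.95, adjusted p = 0.0129) that passed in 10 of the 12 leave-out fits. Prdx6, a peroxiredoxin that reduces lipid peroxides (chr1:161240112-161251219, minus strand), was the most abundant of the 26 genes. Its levels were 201, 180 and 195 FPKM with BSA and 336, 371 and 387 with PA in Flox, against 220, 184 and 216 with BSA and 206, 207 and 200 with PA in HKO. The 3 Flox_PA libraries stood above the other 9, which overlapped. The PA effect was 0.92 in Flox (adjusted p = 0.00145) and -0.01 in HKO (95% interval -0.28 to 0.25), with an interaction of -0.94 (SE 0.18, adjusted p = 0.0454) that passed in 3 of the 12 leave-out fits. Of the 34 tested genes on the list of NRF2 targets and antioxidants, PA raised 7 in Flox and 1 in HKO (all genes tested: 1.29% and 1.68%). The interaction test was passed by 2, both lower (all genes tested: 0.267%). The list's median interaction was -0.173, against 0.018 over all genes tested.

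**Figure D2:**
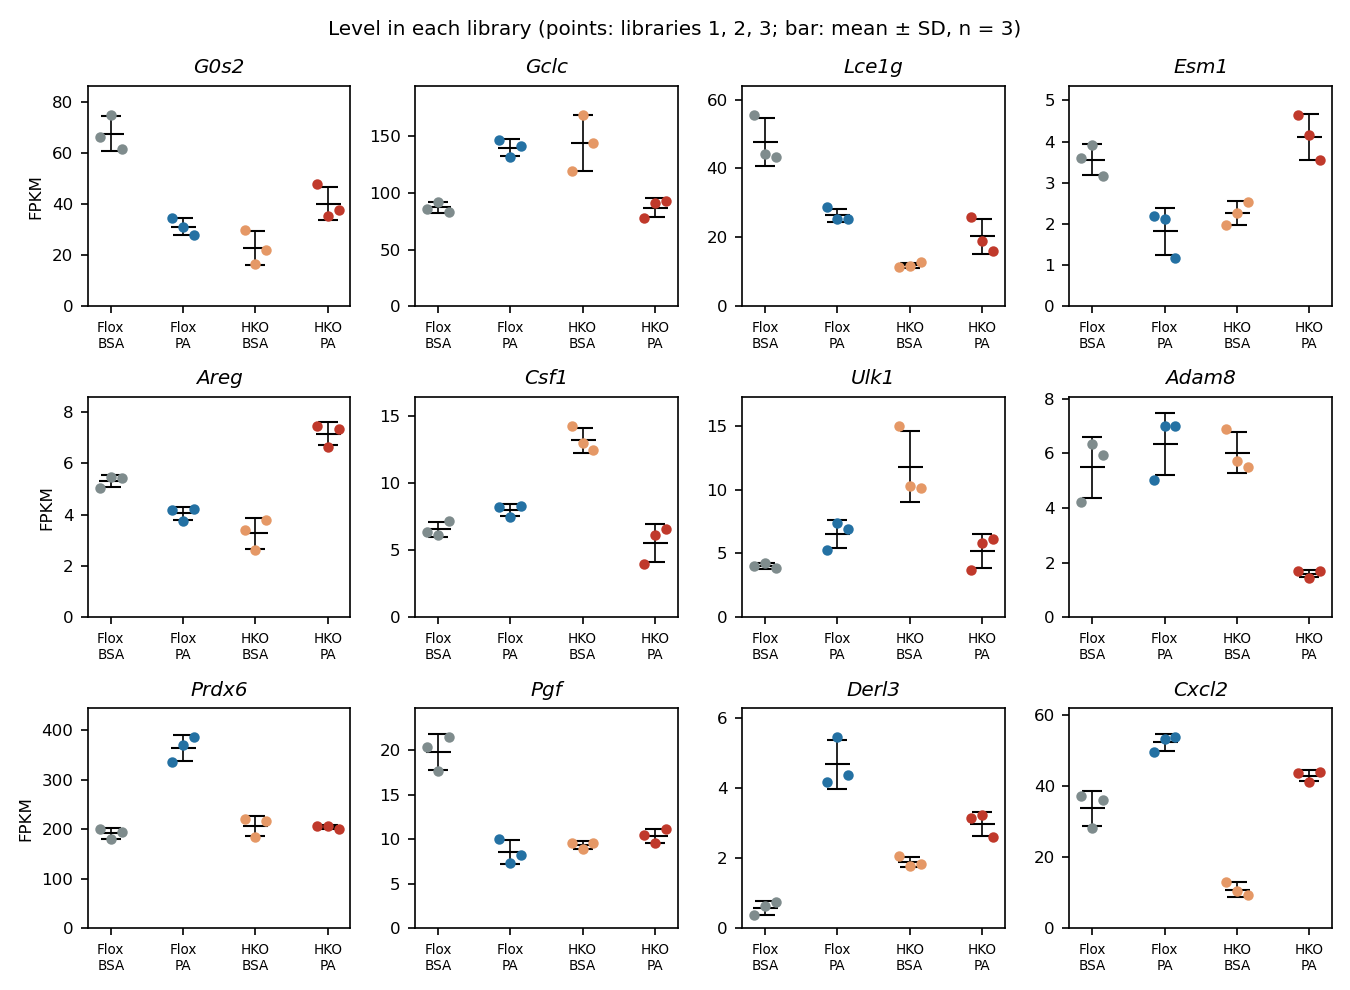
Level of 12 genes in each library (FPKM, vertical, each panel from 0), by group; points are libraries 1 to 3, bars the mean ± SD (n = 3). In G0s2, Lce1g and Esm1 the PA libraries lie lower than BSA in Flox and higher in HKO, Gclc has the opposite pattern, and Prdx6 is high in Flox_PA alone.

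Secreted signals formed a further group, and their promoters are printed because Cxcl2 and Csf1 share a kB motif, the binding sequence of NF-kB, while their interactions had opposite signs; Areg and Hspa1a are shown for their own motifs. Each window runs from 250 bases before to 50 after the RefSeq start (GRCm38.p6), and capitals mark every match on either strand. The windows are chr5:90903649-90903948 (plus) for Cxcl2, chr3:107760420-107760719 (minus) for Csf1, chr5:91139349-91139648 (plus) for Areg and chr17:34972107-34972406 (minus) for Hspa1a.
Cxcl2: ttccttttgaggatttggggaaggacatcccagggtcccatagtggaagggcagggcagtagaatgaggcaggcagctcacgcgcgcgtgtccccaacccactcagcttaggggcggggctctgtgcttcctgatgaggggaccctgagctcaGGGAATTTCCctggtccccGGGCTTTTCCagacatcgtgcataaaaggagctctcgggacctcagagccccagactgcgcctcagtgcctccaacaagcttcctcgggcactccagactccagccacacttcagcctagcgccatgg
Csf1: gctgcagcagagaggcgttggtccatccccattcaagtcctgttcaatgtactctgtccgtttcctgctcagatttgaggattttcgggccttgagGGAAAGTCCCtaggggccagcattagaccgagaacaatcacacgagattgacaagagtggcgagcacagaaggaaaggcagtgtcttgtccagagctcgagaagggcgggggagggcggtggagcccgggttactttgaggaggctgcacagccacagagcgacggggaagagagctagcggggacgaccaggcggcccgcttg
Areg: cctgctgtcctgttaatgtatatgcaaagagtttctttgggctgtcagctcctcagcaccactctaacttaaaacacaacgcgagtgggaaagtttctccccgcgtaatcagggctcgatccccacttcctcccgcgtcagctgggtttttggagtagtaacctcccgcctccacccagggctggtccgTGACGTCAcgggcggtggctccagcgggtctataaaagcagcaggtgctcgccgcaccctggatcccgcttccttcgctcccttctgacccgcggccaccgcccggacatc
Hspa1a: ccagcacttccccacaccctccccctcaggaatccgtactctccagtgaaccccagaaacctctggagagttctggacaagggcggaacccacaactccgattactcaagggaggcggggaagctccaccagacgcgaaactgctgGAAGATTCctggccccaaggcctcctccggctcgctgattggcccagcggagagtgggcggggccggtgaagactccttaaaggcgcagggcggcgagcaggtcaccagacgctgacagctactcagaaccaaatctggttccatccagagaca
The kB motif searched was GGGNNTTTCC, which 1.63% of the 32851 RefSeq windows held; Cxcl2 had 2 matches and Csf1 had 1. Areg had 1 match to the cAMP response element TGACGTCA, held by 1.79% of windows, and Hspa1a 1 match to the heat shock motif GAANNTTC, held by 7.86%. Of the 18 named genes past the test that had a window, 2 held the kB motif, and 5 of the 10 tested chemokine genes with a window did. The antioxidant response motif TGACNNNGC was also searched, and 12.4% of windows held it. Of the 18, Pgf alone did. Of the 28 tested genes with a window on the NRF2 list, 11 held it, with neither Gclc nor Prdx6 among them. A match is a description of the letters and not a binding site.

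Cxcl2, a ligand that draws neutrophils through CXCR2, rose with PA in both genotypes and by more in HKO. It read 37.1, 28.2 and 35.9 FPKM in Flox with BSA, then 49.6, 53.3 and 53.8 with PA, and in HKO 13.1, 10.4 and 9.22 with BSA and 43.5, 41 and 43.8 with PA. The groups did not overlap within either genotype, and every HKO library with PA stayed below every Flox library with PA. The PA effect was 0.63 in Flox (adjusted p = 0.0401) and 1.89 in HKO (adjusted p = 1.14e-05), so the interaction was 1.27 (SE 0.20, 95% interval 0.83 to 1.70, adjusted p = 0.0212). It passed in 4 of the 12 leave-out fits. Csf1, the growth factor of macrophages, had an interaction of the opposite sign. Its level was 6.36, 6.15 and 7.19 FPKM in Flox with BSA, then 8.2, 7.49 and 8.32 with PA, and in HKO 14.3, 13 and 12.5 with BSA and 3.96, 6.18 and 6.6 with PA. The groups did not overlap in either genotype, and PA lowered it in HKO (-1.14, adjusted p = 0.00137). The Flox estimate of 0.25 missed the threshold (adjusted p = 0.432), and the interaction was -1.39 (SE 0.22, adjusted p = 0.0208).

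Areg encodes amphiregulin, a ligand of the EGF receptor. Its values were 5.03, 5.47 and 5.42 FPKM in Flox with BSA, then 4.19, 3.75 and 4.21 with PA, and in HKO 3.39, 2.61 and 3.81 with BSA and 7.47, 6.64 and 7.36 with PA. The 3 HKO_PA libraries were the highest of the 12. PA raised Areg in HKO (0.94, adjusted p = 0.00134), the Flox estimate was -0.32 (adjusted p = 0.248), and the interaction of 1.26 (SE 0.18, adjusted p = 0.0129) passed in 11 of the 12 leave-out fits. Pgf, placental growth factor of the VEGF family, read 20.3, 17.6 and 21.5 FPKM with BSA and 10, 7.33 and 8.26 with PA in Flox, against 9.59, 8.85 and 9.56 with BSA and 10.5, 9.57 and 11.2 with PA in HKO. PA lowered it in Flox (-1.13, adjusted p = 0.000556) to the level that HKO already had under BSA, and the HKO effect was 0.14 (95% interval -0.15 to 0.43). Its interaction was 1.27 (SE 0.19, adjusted p = 0.0149). Esm1, the secreted proteoglycan endocan, fell in Flox from 3.56 ± 0.375 to 1.82 ± 0.572 FPKM and rose in HKO from 2.26 ± 0.288 to 4.12 ± 0.558 (SD, n = 3). The Esm1 interaction was 1.36 (SE 0.22, adjusted p = 0.0226).

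Cxcl2 was the single chemokine past the interaction test among the 15 tested of the 21 on the list. PA raised 10 of the 15 in HKO and 4 in Flox (all genes tested: 1.68% and 1.29%), and lowered none in either. The 4 raised in Flox were Cxcl1, Cxcl2, Cxcl3 and Ccl4, and all 4 were also raised in HKO, where Ccl2, Ccl3, Ccl7, Ccl9, Ccl20 and Cxcl10 joined them. All 15 interactions lay above 0, from 0.322 to 1.52 with a median of 0.829, while 5033 of the 9743 genes tested lay above 0 with a median of 0.018. Ccl2, the main attractant of monocytes, went from 190 ± 15.1 to 294 ± 33.7 FPKM in Flox and from 59.7 ± 15.6 to 269 ± 79.8 in HKO (SD, n = 3), an interaction of 1.52 (SE 0.30) at an adjusted p of 0.0541. Ccl9 measured 71 and 70.4 FPKM in the Flox groups against 7.2 and 18.4 in HKO. Cxcl10, which acts through CXCR3, had means of 2.97 and 3.15 in Flox and 2.41 and 6.48 in HKO. Across the list, the median gene stood at 10.1% of its Flox level in HKO under BSA and at 26.1% under PA, and 12 of the 15 were still lower in HKO under PA. The list's median ranged from 0.656 to 0.998 over the fits that leave out 1 library, was 0.714 without both HKO libraries numbered 1, and was 1.35 with limma-voom, which adds no constant of 1 FPKM.

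Markers of other cells differed between the same groups. The summed level of the macrophage markers was 2229.9 to 2333.6 FPKM in Flox_BSA and 1873.6 to 2113 in Flox_PA, against 93 to 132 in HKO_BSA and 140 to 179 in HKO_PA, so the groups did not overlap within either genotype. Of the 15 tested macrophage markers, 13 also had interactions above 0, with a median of 0.397, and none passed the test. The 7 neutrophil markers summed to 53.6 to 60.2 and 65.6 to 82.8 in Flox, and to 1.01 to 2.12 and 2.29 to 3.51 in HKO, where Cxcr2, Retnlg and S100a9 were at 0 (Cxcr2 also in Flox_PA). Most of these sums came from Mmp9, with means of 37.4 and 52.1 in Flox and 1.06 and 2.28 in HKO. The part of these cells in the chemokine values was not tested. On the list of cytokines and NF-kB feedback genes, PA raised 3 of 22 in Flox and 10 in HKO (all genes tested: 1.29% and 1.68%). The list had a median interaction of 0.286, and Csf1 passed the interaction test. Il1b measured 12.9 and 12.8 FPKM in Flox and 0.537 and 1.96 in HKO, where it rose (0.91, adjusted p = 0.0166). Tnf rose in both, from 5.8 to 10.7 FPKM in Flox and from 0.372 to 1.36 in HKO, with like steps on the log2(FPKM + 1) scale (0.77 and 0.78), which understates the HKO change of a gene under 1 FPKM.

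**Figure D3:**
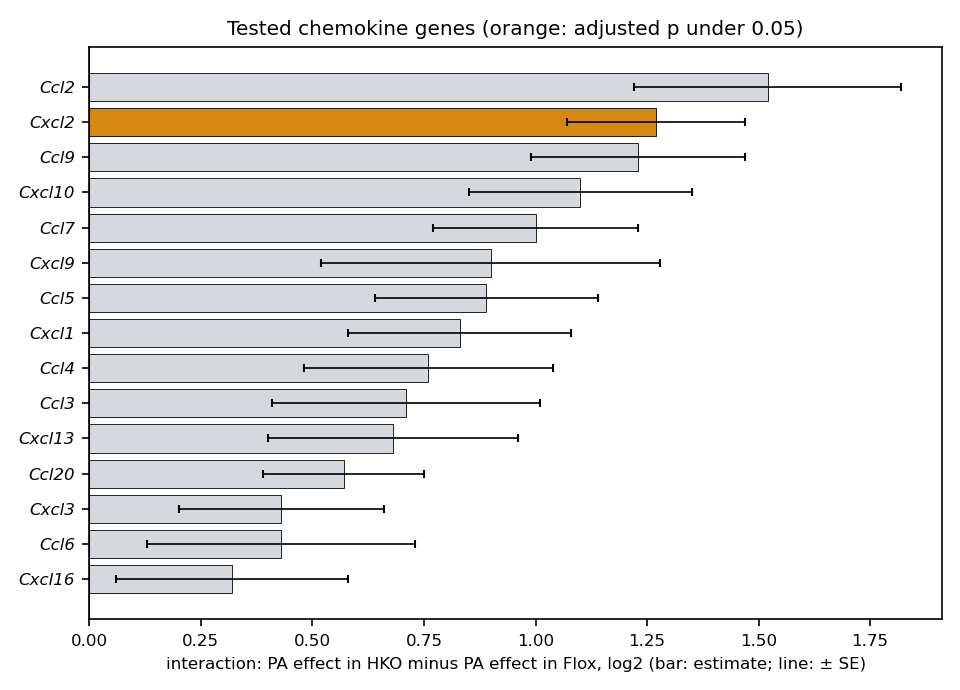
Interaction of the 15 tested chemokine genes (horizontal, log2, PA effect in HKO minus PA effect in Flox); bars are estimates and lines ± SE. All 15 lie above 0, from 0.322 (Cxcl16) to 1.52 (Ccl2), and Cxcl2 alone is under an adjusted p of 0.05.

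Protein quality control had a member on each side. Hspa1a encodes the inducible chaperone HSP70 (chr17:34969190-34972156, minus strand). It was at 0.123, 0.271 and 0.282 FPKM in Flox_BSA and 0.304, 0.107 and 0.195 in HKO_BSA, and at 1.64, 2.01 and 1.46 in Flox_PA and 3.51, 4.64 and 4.02 in HKO_PA. It rose in both genotypes (1.14 in Flox, 2.07 in HKO), and the HKO_PA libraries stood above the Flox_PA libraries. The interaction was 0.93 (SE 0.17, adjusted p = 0.0454). These values rest on 37 and 29 reads over the 3 BSA libraries of Flox and HKO, and the adjusted p was 0.167 with a pseudocount of 0.1 and 0.243 with limma-voom. Hspa1b, a near-identical copy with which reads may have been split, also rose in both (0.555 to 3.97 FPKM in Flox, 1.22 to 9.99 in HKO), and its interaction of 0.63 did not pass (adjusted p = 0.227). Of the 20 tested heat shock genes, PA raised 3 in Flox and 2 in HKO (all genes tested: 1.29% and 1.68%). The list's median interaction was 0.0735.

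Derl3, a derlin that takes part in clearing misfolded proteins from the endoplasmic reticulum, rose in Flox from 0.367, 0.646 and 0.756 FPKM to 4.18, 5.46 and 4.36. In HKO it read 2.07, 1.78 and 1.83 under BSA and 3.14, 3.22 and 2.59 under PA. The groups did not overlap in either genotype, and the effects were 1.83 in Flox (adjusted p = 1.2e-05) and 0.46 in HKO (adjusted p = 0.0837). The interaction was -1.38 (SE 0.19, adjusted p = 0.0129), past in 11 of the 12 leave-out fits. Of the 26 tested chaperone and degradation genes of the endoplasmic reticulum, PA raised 5 in Flox and 3 in HKO (all genes tested: 1.29% and 1.68%). Their median PA effect was 0.179 in Flox and -0.0987 in HKO, and Derl3 was the member past the interaction test.

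A response in HKO without a matching one in Flox was seen for Adam8, a membrane metalloprotease (chr7:139978932-139992562, minus strand). Its values were 4.21, 6.33 and 5.94 FPKM in Flox with BSA, then 5.03, 7 and 7.01 with PA, and in HKO 6.88, 5.73 and 5.5 with BSA and 1.68, 1.44 and 1.68 with PA. The first 3 groups overlapped and the HKO_PA libraries lay below all of them. PA lowered Adam8 in HKO (-1.43, adjusted p = 0.000239), the Flox effect was 0.18 (95% interval -0.16 to 0.52), and the interaction of -1.61 (SE 0.23, adjusted p = 0.0129) passed in 11 of the 12 leave-out fits. The neighbouring transcript Gm16201 (chr7:139950396-139978977, plus strand) overlaps the end of Adam8 on the opposite strand and also passed, and without stated strand counting their shared bases cannot be told apart. Fam124a was 11.2, 10 and 12.6 FPKM in Flox_BSA and 11.9, 14 and 12.6 in Flox_PA, and went from 26.3, 27.2 and 27.9 in HKO_BSA to 13.7, 13.1 and 13.4 in HKO_PA. PA brought it in HKO to near the Flox level, with an interaction of -1.15 (SE 0.17, adjusted p = 0.0129).

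The remaining reversed genes outside the immune group were Lce1g, Slc17a9, Tcim and Sdcbp2. Lce1g, named for the late cornified envelope of skin, read 55.6, 44.2 and 43.2 FPKM in Flox with BSA, then 28.7, 25.4 and 25.3 with PA, and in HKO 11.3, 11.7 and 12.8 with BSA and 25.9, 19 and 16.1 with PA. It fell in Flox (-0.82) and rose in HKO (0.70), which brought the PA groups of the genotypes close together from BSA groups that lay far apart, and its interaction was 1.52 (SE 0.23, adjusted p = 0.0167). Slc17a9, the vesicular transporter of ATP, went from 3.61 ± 0.284 to 4.72 ± 0.331 FPKM in Flox and fell from 7.37 ± 0.299 to 4.44 ± 0.376 in HKO (SD, n = 3; interaction -0.93, adjusted p = 0.0288). Tcim (interaction 0.92) and Sdcbp2, a PDZ-domain adaptor (1.09), both rose in HKO and had negative estimates in Flox that missed the threshold (adjusted p = 0.143 and 0.154). Of these 4 genes, Lce1g passed in 8 leave-out fits and the others in 2 to 4.

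A last group of 5 genes, best known from immune cells, had positive interactions. Slfn2, a Schlafen protein of immune cells, read 31.4, 31.4 and 37.8 FPKM in Flox with BSA, then 26.4, 26.2 and 30.4 with PA, and in HKO 0.968, 1.26 and 1.08 with BSA and 2.64, 2.66 and 3.02 with PA. It rose in HKO (0.85, adjusted p = 0.00265) from a level far under that of Flox, and the interaction was 1.11 (SE 0.18, adjusted p = 0.0208). Clec7a, the beta-glucan receptor Dectin-1 of myeloid cells, fell in Flox from 8.27 ± 0.699 to 3.73 ± 0.436 FPKM and stood at 0.188 ± 0.189 and 0.55 ± 0.286 in HKO, where the libraries overlapped (SD, n = 3; interaction 1.35, adjusted p = 0.0212). Adgre4, a receptor related to F4/80, fell from 3.85 to 1.59 in Flox and measured 0.0945 and 0.183 in HKO (interaction 1.02). Ms4a4c (interaction 1.18) and Slfn1 (0.78) fell in Flox from 6.48 to 2.63 and from 5.43 to 2.71 FPKM. In HKO, Ms4a4c had 3 reads over the 3 BSA libraries and 9 over the 3 PA libraries, and Slfn1 had 2 and 1, so a PA response of Slfn1 in HKO was not detectable at this depth. With a pseudocount of 0.1 none of Clec7a, Adgre4, Ms4a4c and Slfn1 passed (adjusted p = 0.0932, 0.0678, 0.139 and 0.266), while Slfn2 did (0.013). Summed macrophage markers were at 93 to 179 FPKM in HKO against 1873.6 to 2333.6 in Flox, and their part in these 5 genes and in Lpl was not tested.

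Of the 35 gene lists looked up, 7 had a member past the interaction test, and each of those had 1 except the NRF2 list with 2. Apart from the chemokines, the lists with medians farthest from 0 belonged to metabolism and to mitochondria. Fatty acid synthesis had a median interaction of -0.462, with 2 of 19 genes above 0. Its median PA effect was 0.249 in Flox and -0.15 in HKO. Fasn, fatty acid synthase, read 64.6 and 57.2 FPKM in Flox and fell in HKO from 48 to 19.7 (-1.32, adjusted p = 0.0214), and Mlxipl, which encodes the glucose-sensing factor ChREBP, fell in HKO from 27.3 to 16.6 (-0.70, adjusted p = 0.0411). Srebf1, the main transcriptional driver of fat synthesis, had means of 14.9, 20.4, 16.6 and 12.3 in Flox_BSA, Flox_PA, HKO_BSA and HKO_PA, and its interaction of -0.82 did not pass (adjusted p = 0.118). Thrsp, a lipogenic target, rose in Flox from 8.6 to 17.2 (0.92, adjusted p = 0.00529), and the HKO estimate was 0.34. Without both HKO libraries numbered 1, the interaction was -0.55 for Srebf1 and -0.64 for Mlxipl (-0.94 with all libraries). For Thrsp it was -0.62 (-0.58 with all libraries).

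Glucose metabolism had a median of -0.436, with 5 of 19 above 0. G6pc, the glucose-releasing phosphatase, had means of 1.25 and 3.13 FPKM in Flox and 8.4 and 4.45 in HKO (interaction -1.65, adjusted p = 0.0725). Pcx, pyruvate carboxylase, fell in HKO from 55.6 to 30.9 (-0.83, adjusted p = 0.0464), with an interaction of -1.20 at an adjusted p of 0.0859. Among cholesterol genes PA raised 6 of 25 in Flox and 1 in HKO (all genes tested: 1.29% and 1.68%). Dhcr7, which makes the last step of cholesterol synthesis, rose in Flox from 7.48 to 20.7 (1.33, adjusted p = 0.00282) and had an estimate of 0.10 in HKO, an interaction of -1.23 (adjusted p = 0.0725). None of the genes on these 3 lists passed the interaction test. Without both HKO libraries numbered 1, the interaction was -0.80 for Pcx, -0.93 for Dhcr7 and -1.79 for G6pc.

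The mitochondrially encoded RNAs had a median interaction of 0.408, with 12 of 13 above 0 and none past the test. Their median was -0.223 without both HKO libraries numbered 1 and -0.0575 without HKO_BSA 1, so its sign rested on those libraries. The mitochondrial calcium uptake list, to which the uniporter complex belongs, had 0 of 12 past the test and a median of -0.128. Stress granule components had 0 of 22 past and a median of 0.0783. With 0.267% of all genes tested past the test, 0 calls in lists of this size say little about them. Of the 30 tested PPARA targets and fat oxidation genes, PA raised 4 and lowered 1 in each genotype. Over all genes tested, PA raised 1.29% and lowered 0.913% in Flox, and raised 1.68% and lowered 1.25% in HKO. The median interaction of the PPARA list was 0.154, which was 0.0859 without HKO_BSA 1, 0.04 without both HKO libraries numbered 1 and -0.0261 with array weights. ATF4 and CHOP targets had a median of 0.0475, and Nupr1, a stress-induced coregulator, fell in Flox from 33.9 to 19.1 FPKM while it read 20.7 and 24.3 in HKO (interaction 1.01, adjusted p = 0.0615). Among actin and YAP targets, Ctgf fell in both genotypes, with effects of -1.57 in Flox and -0.59 in HKO, and the difference of 0.98 did not pass (adjusted p = 0.0591). Acute phase proteins had a median of 0.244, which was -0.0532 without both HKO libraries numbered 1. Hepatocyte identity genes had a median of -0.202 with 4 of 17 above 0. Foxa2, a liver transcription factor, rose in Flox from 3.81 to 7.09 (0.75, adjusted p = 0.0298) and had an estimate of -0.33 in HKO (interaction -1.08, adjusted p = 0.0647). Medians of the other lists with 3 or more tested members ran from -0.273 (thyroid hormone) to 0.397 (macrophages), and the stellate cell and lymphocyte marker lists had no tested member. Without both HKO libraries numbered 1, the medians of the heat shock and calcium uptake lists changed sign too (to -0.022 and 0.00489).

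**Figure D4:**
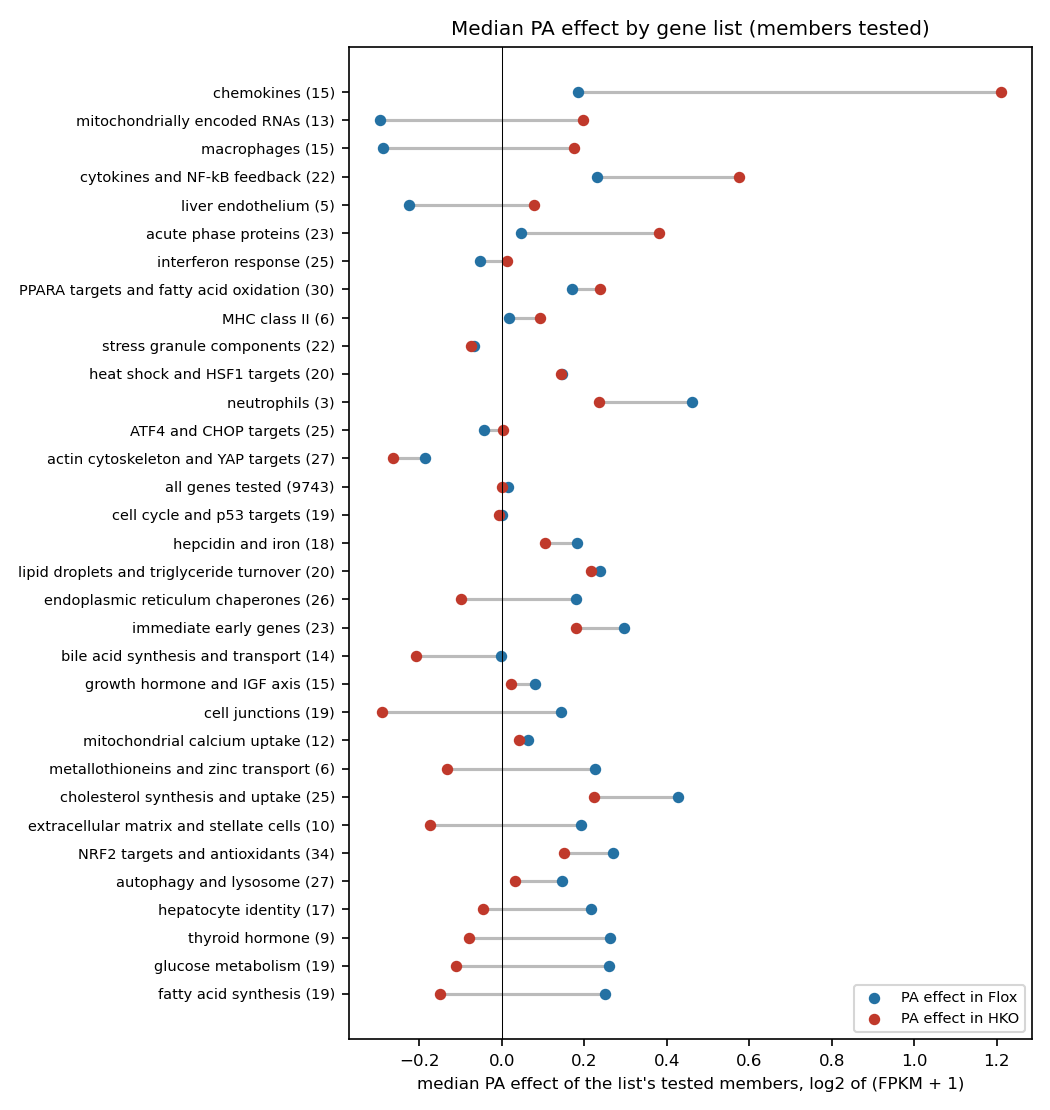
Median PA effect of each gene list with at least 3 tested members (horizontal, log2 of (FPKM + 1)) in Flox and in HKO, ordered by median interaction, with the number of tested members in brackets. Chemokines have medians of 0.184 in Flox and 1.21 in HKO, while fatty acid synthesis has 0.249 and -0.15.

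Large PA responses were also present in both genotypes. The genes described next were taken, after their values had been seen, by the smaller of their absolute effects among genes past the test in both genotypes. Plin2, the coat protein of lipid droplets and a PPARA target, rose from 81.4 to 322 FPKM in Flox and from 207 to 780 in HKO. Its interaction was -0.05 (95% interval -0.52 to 0.43), the interval that these libraries allow for a difference. Creb3l3, a liver transcription factor of lipid handling, rose from 9.38 to 29.1 and from 19.2 to 63.3 (interaction 0.16, 95% interval -0.34 to 0.66). Hamp encodes hepcidin, the regulator of iron uptake, and went from 38 to 276 in Flox and from 5.29 to 83.6 in HKO, with a wide interval for the interaction (95% interval -0.06 to 2.06). Il23a, a cytokine subunit, rose in both and had an interaction with a 95% interval of 0.54 to 1.45 at an adjusted p of 0.0647. Egr1, an immediate early factor, rose by 1.94 in Flox and 1.19 in HKO (interaction -0.75, adjusted p = 0.238).

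Among shared falls, Dio3, the deiodinase that inactivates thyroid hormone, went from 17.5 to 2.27 FPKM in Flox and from 8.33 to 1.43 in HKO (interaction 0.55, 95% interval 0.05 to 1.05, adjusted p = 0.256). Thbs1, thrombospondin 1, fell from 9.19 to 2.97 and from 10.1 to 3.18 (interaction -0.05, 95% interval -0.60 to 0.49). Vil1, villin of microvilli, fell from 3.48 to 0.863 and from 2.93 to 0.775 (interaction 0.11, 95% interval -0.34 to 0.56). Fgf21, the hepatokine of fasting, fell from 36.7 to 14.2 and from 37.8 to 21 (interaction 0.49, adjusted p = 0.22). A missed threshold does not show that these responses were equal.

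Across the 12 fits that leave out 1 library, 6 of the 26 genes passed in at least 10, and 14 passed in fewer than 6. The most stable were G0s2, Areg, Adam8, Derl3 and Gm16201, whose call was lost without Flox_PA 2 alone, and Gclc, whose call was lost without Flox_PA 2 and without Flox_BSA 1. Fam124a passed in 9, Lce1g and Pgf in 8 and Esm1 in 7. Clec7a and Csf1 passed in 6, Slfn2 and Ulk1 in 5, and Tcim, Ms4a4c and Slfn1 in 2.

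**Figure D5:**
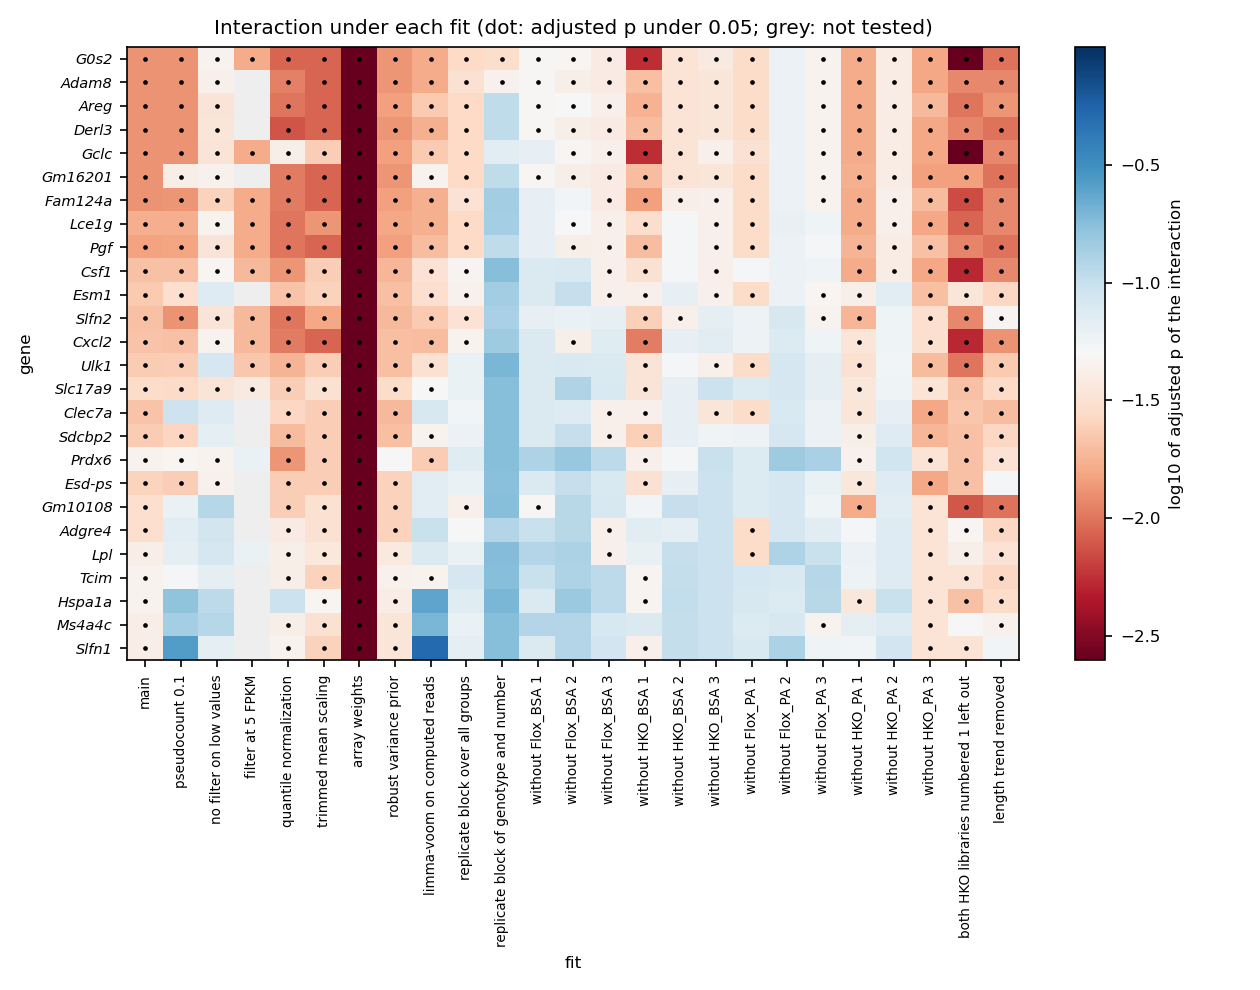
Interaction test of the 26 genes (rows) in each fit (columns); colour is log10 of the adjusted p, a dot marks an adjusted p under 0.05, and grey marks a gene that the fit did not test. G0s2 and Adam8 have a dot in every fit that tested them except the fit without Flox_PA 2, where no gene has a dot.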

How the data were processed

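The labels' protocols name total RNA and an NEBNext Ultra RNA library kit; the submitters' processing notes name GRCm38 (mm10). Neither aligner nor read counter is given in the sources used here. FPKM per gene were computed and deposited by the authors, with gene lengths per the file headers. FPKM times length gave whole multiples of 1 read (within 0.01) for 100% of values up to 1000 reads, which gave the reads quoted.

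One limma model (3.58.1, R 4.3.3, variance prior with a trend) was fitted on log2(FPKM + 1) to 4 group means of 3 libraries, for genes averaging 1 FPKM or more. Fold changes on this scale understate those of low genes. Two-sided p-values were adjusted by Benjamini-Hochberg over 9743 genes, and the test was tested on simulated data. The simulated data gave each gene the same spread in all 4 groups, so they say nothing about the larger scatter of the HKO libraries. Members of the 35 gene lists, the comparison and its rules were chosen with earlier results of these data known. Named genes are those past the interaction test, 12 at most per direction and up to 4 per class or list, the 2 of smallest p in other lists, and G3bp1 and G3bp2. Symbols of predicted genes and pseudogenes were passed over (3 of the 26), although Gm16201 is named where it overlaps Adam8. Promoters are from RefSeq. Alternatives are given in the closing section.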

Additional observations from a re-analysis of the deposited data

Results flagged for a closer look

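The PA effect differed between Flox and HKO by the interaction test itself for 26 genes. Those with a higher step in HKO had interactions, on the log2 scale, of 1.91 for G0s2, 1.52 for Lce1g, 1.36 for Esm1, 1.35 for Clec7a, 1.27 for Cxcl2, 1.27 for Pgf, 1.26 for Areg and 1.18 for Ms4a4c. Further values were 1.11 for Slfn2, 1.09 for Lpl, 1.09 for Sdcbp2, 1.02 for Adgre4, 0.93 for Hspa1a, 0.92 for Tcim and 0.78 for Slfn1. Of these, Clec7a, Lpl, Ms4a4c, Adgre4 and Slfn1 were under 1 FPKM in both HKO groups, so that on log2(FPKM + 1) a fall in Flox alone gives a positive value, and none of the 5 passed with a pseudocount of 0.1 or with limma-voom. Their limma-voom estimates were positive but had wide errors: 3.08 (SE 0.70), 1.33 (SE 0.30), 2.57 (SE 0.84), 2.40 (SE 0.58) and 0.92 (SE 0.74), in that order. Lower steps in HKO were -1.61 for Adam8, -1.61 for Ulk1, -1.39 for Gclc, -1.39 for Csf1, -1.38 for Derl3, -1.15 for Fam124a, -0.94 for Prdx6 and -0.93 for Slc17a9.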

How the results depend on the processing

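The count of 26 genes (16 higher, 10 lower) was 25 with a pseudocount of 0.1, 27 with no filter on low values, 26 with a robust variance prior and 20 with a fold limit of 1. It was 10 with a filter at 5 FPKM, 58 with quantile normalization (31 higher, 27 lower), 61 with trimmed mean scaling (42 higher, 19 lower), 48 with limma-voom on the computed reads (36 higher, 12 lower), 64 with a length trend removed, 88 without both HKO libraries numbered 1 and 1668 with array weights (658 higher, 1010 lower), which gave both HKO libraries numbered 1 a weight of 0.145. Leaving out 1 library gave 0 (without Flox_PA 2) to 265 (without HKO_PA 3), with 6 without Flox_BSA 1, 8 without HKO_BSA 2 and 9 without Flox_BSA 2. No gene passed in all 12 of these fits, 6 passed in at least 10, and 14 in fewer than 6. With a least PA effect of 0.5, 6 genes were reversed, 0 weakened and 9 gained, since the limit itself sets the class. The cause of the other changes was not tested. The 2437 shortest genes had a median interaction of 0.182 and 10 of the 16 higher calls. List medians moved by more than their spread in 80 of 792 recomputations.

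As a paired fit, the replicate block over all groups gave 15 genes (8 higher, 7 lower), and the replicate block of genotype and number gave 3, of which G0s2 and Adam8 were among the 26. The sample titles give the same genotype and number under BSA and under PA, but no label says that a number marks a shared animal. Libraries of the same number correlated at 0.203, -0.015 and 0.316 in Flox and at -0.243, 0.349 and -0.484 in HKO. Not every library correlated best with its own number. With 3 libraries per group these values cannot decide whether the libraries are paired, and the main fit took them as unpaired. With 15.02 to 18.42 M reads per library, genes with a few reads in HKO, such as Slfn1, allow no statement on their response there.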
